A study of Mus musculus with 10 samples.

Results

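The transcripts of 8 mouse enzymes of the tricarboxylic acid (TCA) cycle and of glutamine entry into it, Cs, Idh2, Idh3a, Ogdh, Suclg1, Fh1, Mdh2 and Glud1, were measured by RNA sequencing in embryonic stem cells. The genes were chosen by symbol, 1 enzyme or subunit for each of the main steps, and each of the 8 had a row of its own among the 49624 genes of the table. All 8 passed the filter on low values and were among the 16056 genes tested. The TCA cycle oxidises acetyl-CoA in the mitochondrial matrix and passes its electrons to the respiratory chain. Glutamine enters it as glutamate, which glutamate dehydrogenase or a transaminase turns into alpha-ketoglutarate. In embryonic stem cells alpha-ketoglutarate is also a cosubstrate of the dioxygenases that demethylate DNA and histones, enzymes that succinate and fumarate inhibit.

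The study compared 5 groups of 2 libraries each, which the labels call biological duplicates. Nothing in the labels says that the duplicates came from separate cultures, so a p-value here reflects no more than how far these libraries lie apart. KO (genotype Mof-KO) and WT (genotype wild type) cells were both C57BL/6J cells with Mof fl/fl and Cre-ER TM, so the wild type cells also carried the floxed alleles and the inducible Cre. The protocol gives ethanol or 100 nM 4-hydroxytamoxifen for 3 days without saying which group had which, and a group with the drug and intact Mof is not among the labels. Released, ETO and Control cells were of the E14tg2a line, a single established embryonic stem cell line. ETO cells had etomoxir, an inhibitor of fatty acid entry into mitochondria by CPT1, for 4 days at a dose that the labels do not give. Released cells had the same and then 4 days without it, and Control cells had water for 4 days. A water group kept as long as the Released cells is not among the labels. In comparisons with Released cells, removal of etomoxir and time in culture thus cannot be told apart. All cells grew in Ndiff227 with 1 µM PD0325901, 3 µM CHIR99021 and 1000 U/ml LIF, a serum-free medium that keeps them in the ground state. The 2 experiments thus differ in cell line as well as in what was done to the cells, and these cannot be told apart.

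Values below are normalised counts, reads divided by 1 factor per library, unless FPKM (per length) is named. The libraries held an estimated 9783467 to 16778443 reads, and 3 reads were worth 2.07 to 4.04 normalised counts, depending on the library. The lowest value of the 8 enzymes, in any library, was 830.3. Kat8, the gene also called Mof, had 222 and 205.5 normalised counts in KO, against 433.5 and 357 in WT (log2 change -0.88, SE 0.114, limma adjusted p = 3.64e-05). The count covers the whole gene and does not separate deleted exons. Cpt1a, the main CPT1 form outside muscle, had 4365 and 4392 in ETO, against 2297 and 2153 in Control (0.98, adjusted p = 1.19e-09). Each also changed in the other experiment: Cpt1a fell in KO (-0.30, limma adjusted p = 0.00086) and Kat8 rose in ETO (0.53, adjusted p = 0.000796). ES cell markers were present throughout: the 12 on the list summed to 43680 to 72440 normalised counts per library.

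Upstream sequence is shown for 3 enzymes whose transcripts fell with etomoxir and rose after its removal (Fh1, Suclg1, Mdh2) and for the enzyme with the largest change in KO of the 8 (Cs). The sequences are from RefSeq (build GRCm38.p6, the same coordinates as mm10), which held promoters of 7 of the 8 genes. Of the 250 bases before the RefSeq start site, those outside the annotated span of the gene are printed, on the strand of the gene. Capitals mark GC boxes (GGGCGG) and CCAAT boxes on either strand. In Mdh2 they also mark TCTCGCGAGA, which reads the same on both strands. The windows are chr1:175625636-175625885 on the minus strand for Fh1, chr6:73248255-73248381 for Suclg1, chr5:135778399-135778479 for Mdh2 and chr10:128337477-128337726 for Cs, the last 3 on the plus strand.
Fh1: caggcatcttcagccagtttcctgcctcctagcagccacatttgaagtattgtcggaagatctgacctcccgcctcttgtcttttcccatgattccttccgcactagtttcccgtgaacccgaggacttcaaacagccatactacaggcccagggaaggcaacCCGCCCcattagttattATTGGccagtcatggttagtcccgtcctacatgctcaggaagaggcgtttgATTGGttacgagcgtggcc
Suclg1: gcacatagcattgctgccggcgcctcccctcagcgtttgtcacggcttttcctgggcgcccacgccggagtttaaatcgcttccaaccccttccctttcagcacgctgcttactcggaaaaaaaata
Mdh2: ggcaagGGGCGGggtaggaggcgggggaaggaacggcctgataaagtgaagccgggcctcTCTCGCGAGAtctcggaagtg
Cs: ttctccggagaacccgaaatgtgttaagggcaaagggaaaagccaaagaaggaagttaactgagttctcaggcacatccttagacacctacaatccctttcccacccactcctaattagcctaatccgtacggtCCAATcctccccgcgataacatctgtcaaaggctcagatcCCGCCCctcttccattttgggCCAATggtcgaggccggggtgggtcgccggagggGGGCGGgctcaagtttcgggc
Over the full 250 bases, Fh1 held 1 GC box and 2 CCAAT boxes, Cs held 2 of each, and Suclg1 held neither. A GC box was present in 32.7% and a CCAAT box in 33.8% of 32851 RefSeq promoters of the same length. Mdh2 held 1 GC box and 3 copies of TCTCGCGAGA, of which the printed bases show 1. That palindrome, searched for after the sequences had been read, occurred in 0.39% of promoters, and at 3 or more copies in 0.00609%. The letters CACGTG (E-box), CCGGAAG (ETS core), AAGGTCA (ERR element) and TGCGCA (NRF1 element) were absent from these 4 windows. They occurred in 6.02%, 6.91%, 4.08% and 6.43% of promoters. A match is a run of letters and not a measured site.

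All 8 genes are protein-coding. In mm10 (GENCODE annotation) Cs lies on chromosome 10 from 128337734 to 128362479, Idh2 on chromosome 7 from 80094846 to 80115392, and Idh3a on chromosome 9 from 54586334 to 54604661. Ogdh lies on chromosome 11 from 6291633 to 6356642, Suclg1 on chromosome 6 from 73248382 to 73276911, and Fh1 on chromosome 1 from 175600374 to 175625635. Mdh2 lies on chromosome 5 from 135778480 to 135790398 and Glud1 on chromosome 14 from 34310727 to 34345265. The span of Fh1 overlaps that of Kmo on the opposite strand, with 0 shared exon bases and at most 9.64 normalised counts of Kmo in any library.

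Per length, Mdh2 was the highest of the 8 in all 5 groups and Ogdh the lowest. Mdh2, malate dehydrogenase of the last step of the cycle, averaged 451 ± 54.4 FPKM in KO and 369.5 ± 61.3 in WT. It averaged 587 ± 11.3 in Released, 375.5 ± 6.75 in ETO and 518 ± 0.614 in Control (SD, n = 2 each). Ogdh, the first subunit of the alpha-ketoglutarate dehydrogenase complex, averaged 60.5 ± 0.626 FPKM in KO, 73.4 ± 6.07 in WT, 47.8 ± 1.19 in Released, 56.3 ± 2.12 in ETO and 48.6 ± 0.76 in Control. Between them the order changed from group to group. In KO it ran Idh2 (276 FPKM), Cs (213), Glud1 (162), Fh1 (160.5), Idh3a (107) and Suclg1 (75.6), with the libraries of Glud1 and Fh1 overlapping. In WT it ran Idh2 (293), Fh1 (194), Cs (150, with an SD of 7.59), Glud1 (149), Idh3a (102) and Suclg1 (79.0), with overlap between Cs and Glud1 and between Suclg1 and Ogdh. In Released, Glud1 (163), Fh1 (135), Cs (134), Idh2 (119), Suclg1 (107) and Idh3a (84.7) followed Mdh2, and Fh1 and Cs overlapped. In ETO the order was Idh2 (141), Cs (135), Glud1 (126), Fh1 (78.2), Suclg1 (68.2) and Idh3a (58.2), with no overlap between neighbours. In Control it was Fh1 (152), Glud1 (145), Cs (138), Idh2 (117.5), Suclg1 (105) and Idh3a (92.1), with overlap between Fh1 and Glud1 and between Glud1 and Cs. Fh1 thus came next after Mdh2 in Control, and after Idh2, Cs and Glud1 in ETO.

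**Figure D1:**
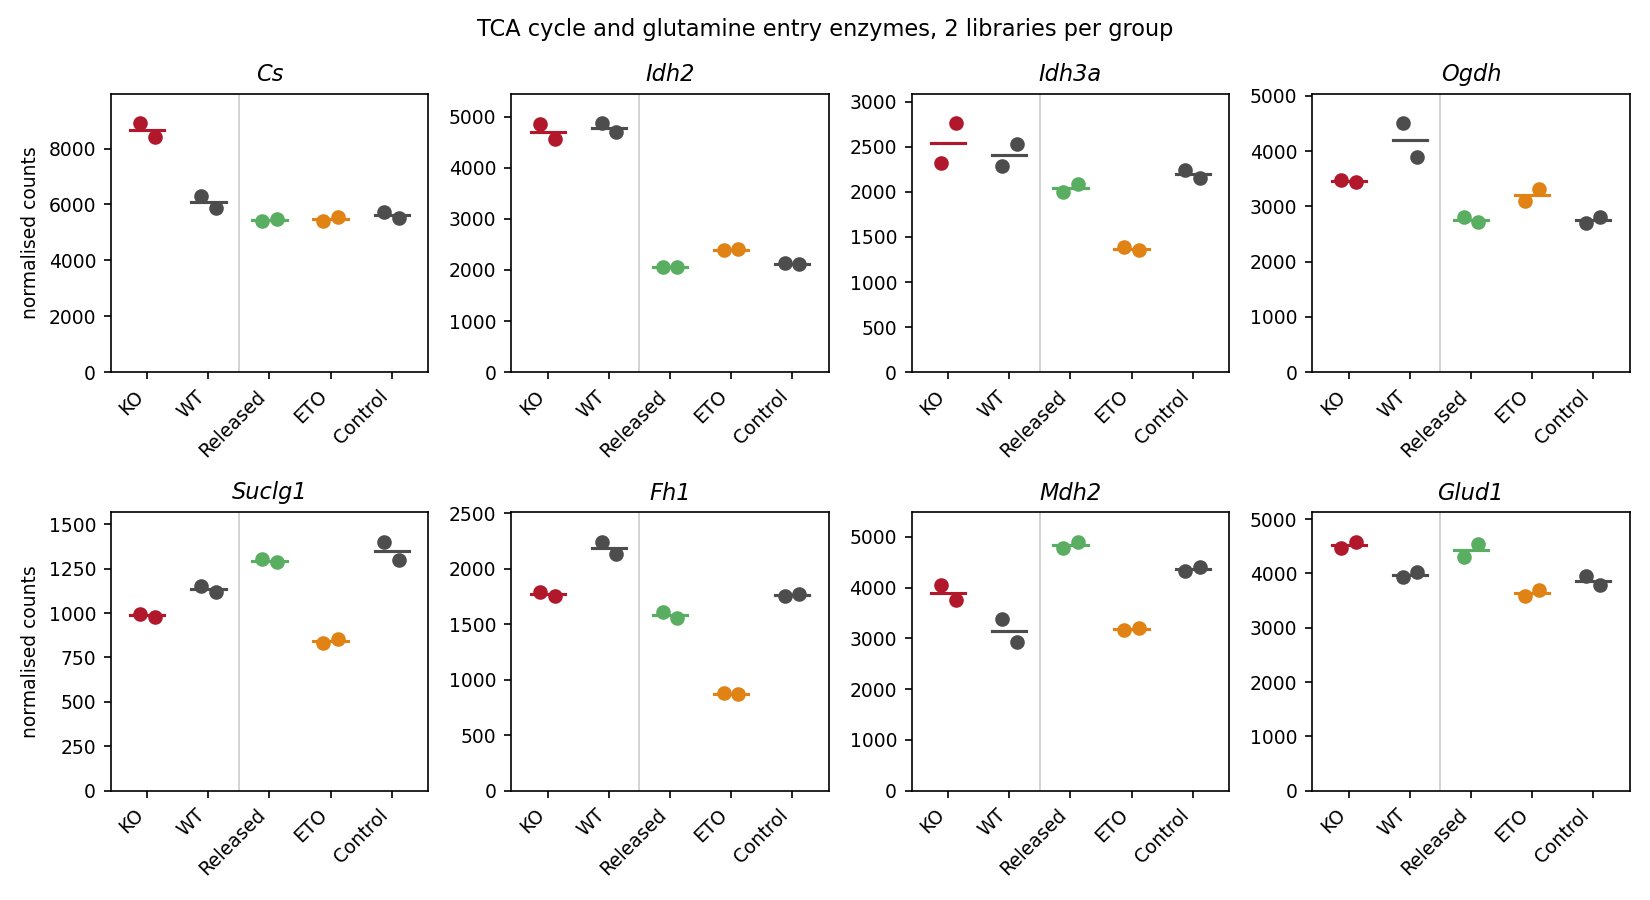
Normalised counts of the 8 enzymes (y axis, from 0) in each library (points) of the KO, WT, Released, ETO and Control groups (x axis), with the group mean as a line. Cs is highest in the KO libraries (8901 and 8399.9), and Fh1, Idh3a and Suclg1 are lowest in the ETO libraries.

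In KO cells, 3 of the 8 enzymes rose (Cs, Mdh2, Glud1) and 3 fell (Fh1, Ogdh, Suclg1). Ogdh and Suclg1, of consecutive steps, both fell, Mdh2 and Cs, also consecutive, both rose, and Fh1 and Mdh2 moved in opposite directions. Of all genes tested, 37.9% were called, 24.6% rising and 13.3% falling (limma, Benjamini-Hochberg adjusted p under 0.05 over all 16056 genes). Rising calls were thus 64.8% of the calls, but 52.9% under TMM scaling and 37.3% with scaling to total signal. The median log2 change was 0.03 over the 8 enzymes, turning to -0.05 under TMM and -0.14 with total signal, and 0.08 over all genes. The libraries of KO and WT did not overlap for 6 of the 8, as for 64.6% of all genes.

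Cs, citrate synthase, which joins acetyl-CoA to oxaloacetate in the first step, had 8901 and 8399.9 normalised counts in KO, against 6312 and 5876 in WT. Both KO libraries were above both WT libraries, and the log2 change was 0.51 (SE 0.0556, limma adjusted p = 9.39e-06), a 1.42-fold difference. Mdh2 had 4052 and 3750.3 in KO, against 3374 and 2926 in WT. Again the KO libraries were the higher ones (log2 change 0.31, SE 0.0679, adjusted p = 0.00221). Glud1, glutamate dehydrogenase, had 4463 and 4582 in KO, against 3927 and 4019 in WT. This was the smallest of the 3 rises (0.19, SE 0.0562, adjusted p = 0.0163).

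Fh1, fumarase, which hydrates fumarate to malate, had 1787 and 1751 normalised counts in KO, against 2242 and 2133 in WT. Both KO libraries were lower (log2 change -0.31, SE 0.0621, adjusted p = 0.00131). Ogdh had 3472 and 3441 in KO, against 4502 and 3894 in WT, a change of -0.28 (SE 0.0695, adjusted p = 0.00562). The WT libraries of Ogdh lay far apart, yet both stood above the KO libraries. Suclg1, the alpha subunit shared by both succinyl-CoA synthetases, had 994 and 979 in KO, against 1151 and 1116 in WT (-0.20, SE 0.0682, adjusted p = 0.0303).

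Neither isocitrate dehydrogenase was called on the deposited scale. Idh2, the mitochondrial NADP-dependent enzyme, had 4854 and 4554 normalised counts in KO, against 4866 and 4691 in WT (log2 change -0.02, 95% interval -0.15 to 0.10, adjusted p = 0.788). Idh3a, the catalytic alpha subunit of the NAD-dependent enzyme of the cycle, had 2326 and 2761 in KO, against 2290 and 2533 in WT (0.07, interval -0.10 to 0.24, adjusted p = 0.5). The groups overlapped for both. With scaling to total signal Idh2 was called as a fall (-0.19, adjusted p = 0.0209, and -0.18, adjusted p = 0.021, without the mitochondrial rows).

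The calls of Cs and Fh1 held under all 23 alternatives, and that of Ogdh under all but the FPKM values (adjusted p = 0.0506). Scaling to total signal lowered the median change of all genes in KO by 0.158, and the rises of Mdh2 (0.15, adjusted p = 0.121) and Glud1 (0.02, 0.785) were then not called. The rise of Glud1 was also lost without KO replicate 2 (0.17, adjusted p = 0.0936), under TMM scaling (0.118) and in the FPKM values (0.417). Suclg1 did not pass as a fall by FPKM (-0.07, 0.75), nor when WT replicate 1, either KO library or either Released library was left out (adjusted p = 0.0509 to 0.112). A fit of the KO and WT libraries alone called neither Glud1 (0.19, limma adjusted p = 0.0932) nor Suclg1 (-0.20, 0.128). It called 4659 of 14749 genes, against 6086 of 16056 in the fit of all 10 libraries. Set against the median of all genes, the changes were 0.42 for Cs, 0.23 for Mdh2, 0.10 for Glud1, -0.28 for Suclg1, -0.36 for Ogdh and -0.39 for Fh1. Marker levels also differed between the groups: the ES cell markers summed to 66260 and 66890 in KO, against 72390 and 70770 in WT. Much of that gap lay in Esrrb, with 13450 and 12710 in KO, against 18000 and 16810 in WT. Of the 12 markers, 4 rose (Nanog, Zfp42, Klf4, Dppa3) and 2 fell, a balance that turned to 3 and 5 under TMM and to 2 and 6 with total signal. Primitive endoderm markers summed to 1372 and 1261 in KO, against 1751 and 1686 in WT, with 1 rising and 2 falling of 6. Most of each sum was Lama1, which fell, with 1254 and 1152 in KO, against 1635 and 1566 in WT. Trophectoderm markers summed to 1924 and 1957 in KO, against 1535 and 1567 in WT, with 2 of 7 rising, Cdx2 at 0 in both groups and Elf5 at 0 in WT. Their part in these results was not tested.

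With etomoxir, 4 of the 8 enzymes fell (Fh1, Idh3a, Suclg1, Mdh2) and 2 rose (Ogdh, Idh2). Of all genes, 60.8% were called in this comparison, 26.8% rising and 34.0% falling, so that 44.1% of the calls were rises, against 50.7% under TMM and 59.0% with total signal. The median log2 change was -0.27 over the 8 enzymes (-0.18 under TMM, -0.08 with total signal) and -0.09 over all genes, which turned to 0.09 with total signal. Libraries did not overlap for 7 of the 8 enzymes, as for 81.6% of all genes.

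Fh1 fell the most of the 8. It had 879.7 and 869 normalised counts in ETO, against 1750.2 and 1769.6 in Control, so that the ETO level was 0.497 of that in Control (log2 change -1.01, SE 0.0621, adjusted p = 1.95e-09). Of all genes tested, 8.93% had a lower log2 change. Idh3a had 1387 and 1354 in ETO, against 2243 and 2153 in Control (-0.68, SE 0.0793, adjusted p = 2.28e-06). Suclg1 had 830.3 and 854 in ETO, against 1401 and 1298 in Control (-0.68, SE 0.0682, adjusted p = 4.59e-07). Mdh2 had 3159 and 3207 in ETO, against 4333 and 4408 in Control (-0.46, SE 0.0679, adjusted p = 2.87e-05). For each of these enzymes the spread between ETO replicates was small beside the gap between the groups. These 4 calls held under all 23 alternatives, scaling to total signal included, which raised the median change of all genes by 0.188.

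Ogdh had 3097 and 3321 normalised counts in ETO, against 2696 and 2805 in Control (log2 change 0.22, SE 0.0695, adjusted p = 0.0119). Idh2 had 2386 and 2401 in ETO, against 2144 and 2106 in Control (0.17, SE 0.0575, adjusted p = 0.0173). Both enzymes were higher in both ETO libraries, by a small margin. The call of Ogdh was lost without Control replicate 1 (adjusted p = 0.0954) and without ETO replicate 2 (0.109), and that of Idh2 without any 1 of the Control or ETO libraries (0.0542 to 0.0966). Neither was called in the FPKM values (0.0626 for Ogdh, 0.0778 for Idh2).

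Cs and Glud1 were not called. Cs had 5402 and 5535 normalised counts in ETO, against 5714 and 5511 in Control, with overlap (log2 change -0.04, 95% interval -0.16 to 0.08, adjusted p = 0.583). With scaling to total signal its change was 0.15 and was called (adjusted p = 0.0309). Glud1 had 3584 and 3689 in ETO, against 3944 and 3779 in Control (-0.09, interval -0.21 to 0.03, adjusted p = 0.199). Its ETO libraries were the lower ones, yet its change differed from the median of all genes by 0.0074 and was 0.0046 to 0.10 under the other scalings.

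ES cell markers fell with etomoxir (11 of 12, with 1 rising) and summed to 43680 and 45790 normalised counts in ETO, against 71720 and 71610 in Control. Of 7 trophectoderm markers tested 6 rose and 1, Cdx2, fell, with 5.93 and 7.47 in ETO, against 61.6 and 35.3 in Control. The sums were 6451 and 6846 in ETO, against 1086 and 1095 in Control, with no marker at 0 in either group. The largest parts of the ETO sums were Krt8 (2116 and 2334, against 238 and 223 in Control) and Krt18 (2501 and 2618, against 29.7 and 44.6). Of 6 primitive endoderm markers 3 rose and 1 fell, with sums of 1546 and 1892 in ETO, against 1948 and 1890 in Control. The largest part of each sum was Lama1, the marker that fell, with 933 and 1299 in ETO, against 1659 and 1624 in Control. Of 3 neural markers tested 1 rose, Nes, with 689 and 683 in ETO, against 198 and 188 in Control, and Pax6 and Sox1 were not called. Of 4 mesoderm markers 2 fell and none rose (limma, likewise 0 at an unadjusted p under 0.05), with sums of 111 and 131 in ETO, against 269.7 and 296 in Control, where Mesp1 was at 0. Rows of mitochondrial genes held 0.761% and 0.588% of the signal in ETO, against 3.39% and 3.34% in Control. The part of these differences in the results for the 8 enzymes was not tested. In bulk samples, fewer cells of a type and less RNA per cell cannot be told apart.

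**Figure D2:**
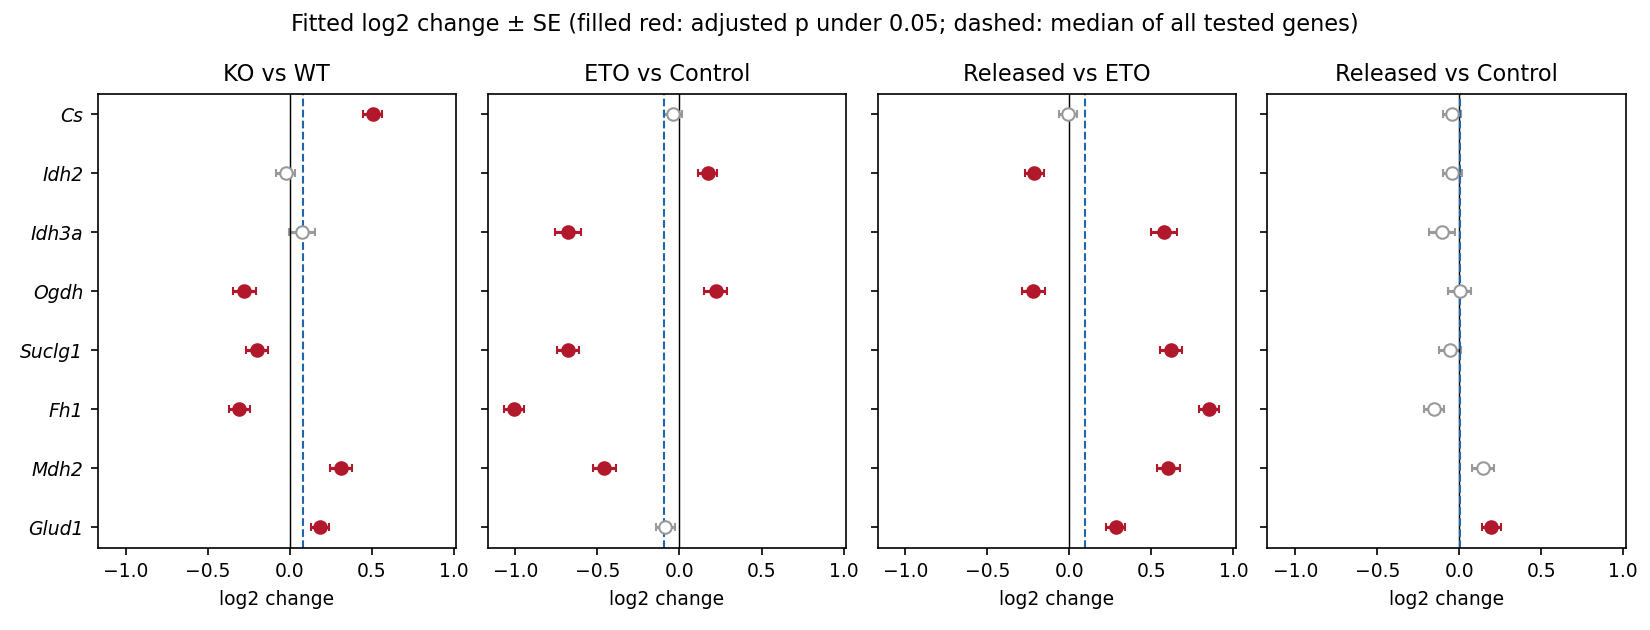
Fitted log2 changes of the 8 enzymes (x axis, ± SE) for 4 comparisons: KO with WT, ETO with Control, Released with ETO, and Released with Control. Filled red points passed an adjusted p of 0.05, open points did not, and the dashed line is the median of all tested genes; Fh1 stands at -1.01 in ETO and 0.85 after release.

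After etomoxir was withdrawn, 5 of the 8 enzymes rose relative to ETO (Fh1, Suclg1, Mdh2, Idh3a, Glud1) and 2 fell (Ogdh, Idh2). Of all genes, 57.7% were called, 33.1% rising and 24.6% falling, so that 57.4% of the calls were rises, against 44.8% with total signal. This comparison shares the ETO libraries with that of ETO and Control, so the values of the 2 comparisons are given side by side and not as separate evidence. The median log2 change was 0.43 over the 8 enzymes and 0.10 over all genes, and libraries did not overlap for 7 of the 8, as for 81.0% of all genes.

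Fh1 had 1607 and 1554 normalised counts in Released, against the 879.7 and 869 in ETO (log2 change 0.85, SE 0.0621, adjusted p = 1.57e-08). Suclg1 had 1302 and 1290.1 in Released (0.62, SE 0.0682, adjusted p = 1.42e-06). Mdh2 had 4778 and 4899 in Released (0.60, SE 0.0679, adjusted p = 1.82e-06). All of these Released libraries were above the ETO libraries. Idh3a had 1995 and 2089 in Released (0.57, SE 0.0793, adjusted p = 1.58e-05). Glud1 had 4296 and 4551 in Released, against the 3584 and 3689 in ETO (0.28, SE 0.0562, adjusted p = 0.000501). The 5 rises held under all 23 alternatives.

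Ogdh had 2799.95 and 2708 normalised counts in Released, lower than in ETO (log2 change -0.22, SE 0.0695, adjusted p = 0.0134). It was no longer called without ETO replicate 2 (0.118) or Released replicate 2 (0.0967). Idh2 had 2064 and 2061 in Released (-0.21, SE 0.0575, adjusted p = 0.00481). In the FPKM table the adjusted p of Idh2 was 0.108. Cs had 5415 and 5463 in Released and was not called (-0.01, 95% interval -0.13 to 0.11, adjusted p = 0.918). With scaling to total signal it was called as a fall (-0.15, adjusted p = 0.0332), making 3 enzymes that fell.

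Markers moved in this comparison too. Of the ES cell markers 11 of 12 rose and 1 fell, with sums of 72220 and 72440 in Released, against 43680 and 45790 in ETO. Of 7 trophectoderm markers 6 fell and 1, Cdx2, rose, with sums of 1664 and 1585 in Released, against 6451 and 6846 in ETO. Set beside the 1086 and 1095 of Control, the trophectoderm sums in Released were higher. Of the 7 markers 3 rose (Krt7, Krt8 and Krt18) and none fell (limma, 5 and 1 at an unadjusted p under 0.05). The part of these markers in the results after release was not tested.

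Against Control, 1 of the 8 enzymes rose in Released cells, Glud1, and none passed the limma test as a fall (1, Fh1, did at an unadjusted p under 0.05). Of all genes, 12.5% were called, 7.03% rising and 5.51% falling (56.1% of the calls were rises, against 70.0% with total signal), and libraries did not overlap for 6 of the 8 enzymes, as for 61.7% of all genes. Glud1 had 4296 and 4551 normalised counts in Released, against 3944 and 3779 in Control (log2 change 0.20, SE 0.0562, adjusted p = 0.0329). Both Released libraries of Glud1 were above both Control libraries. Its call was lost without either Released library (adjusted p = 0.0864 and 0.281), without either Control library (0.0962 and 0.232) and in the FPKM values (0.421). Mdh2 had a change of 0.15 (interval 0.0021 to 0.29, adjusted p = 0.178) and was called without either WT library (0.0485 and 0.0474), which enter the shared estimate of spread. Fh1 had a change of -0.16 (interval -0.29 to -0.02, adjusted p = 0.118), with both Released libraries below both Control libraries. The changes of the other 5 lay between -0.11 (Idh3a) and 0.0019 (Ogdh), and the intervals of Idh3a and Suclg1 reach down to -0.28 and -0.20.

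The change in KO and the change with etomoxir share no library, and their difference was tested for each enzyme. It was positive for 6 of the 8 and negative for 1, where 32.3% of all genes were positive and 22.2% negative, 54.5% called in all. Positive calls were 59.3% of these calls, against 48.0% under TMM and 34.3% with total signal. The median difference was 0.51 over the 8 enzymes and 0.13 over all genes, and with total signal 0.16 over the 8 enzymes and -0.22 over all genes. Mdh2 (0.77, SE 0.096, adjusted p = 7.42e-06) and Ogdh (-0.50, SE 0.0983, adjusted p = 0.000527) were called in both comparisons with opposite signs, Mdh2 rising in KO and falling in ETO and Ogdh falling in KO and rising in ETO. Fh1 fell in both, more so with etomoxir (difference 0.70, SE 0.0878, adjusted p = 7.47e-06). For Idh3a the difference was 0.75 (SE 0.112, adjusted p = 4.09e-05). Cs had a difference of 0.54 (SE 0.0786, adjusted p = 3.18e-05), which with scaling to total signal was 0.19 (adjusted p = 0.0587). Suclg1 had 0.48 (adjusted p = 0.000629), and 0.12 with scaling to total signal (0.301). Glud1 had 0.27 (adjusted p = 0.00901), a sign that turned to -0.08 with scaling to total signal and a call lost without Control replicate 1 (0.0507). Idh2 had -0.19 (adjusted p = 0.0546) and was called without WT replicate 2 (0.0256) or KO replicate 1 (0.039) and under TMM scaling (-0.36, 0.00165).

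**Figure D3:**
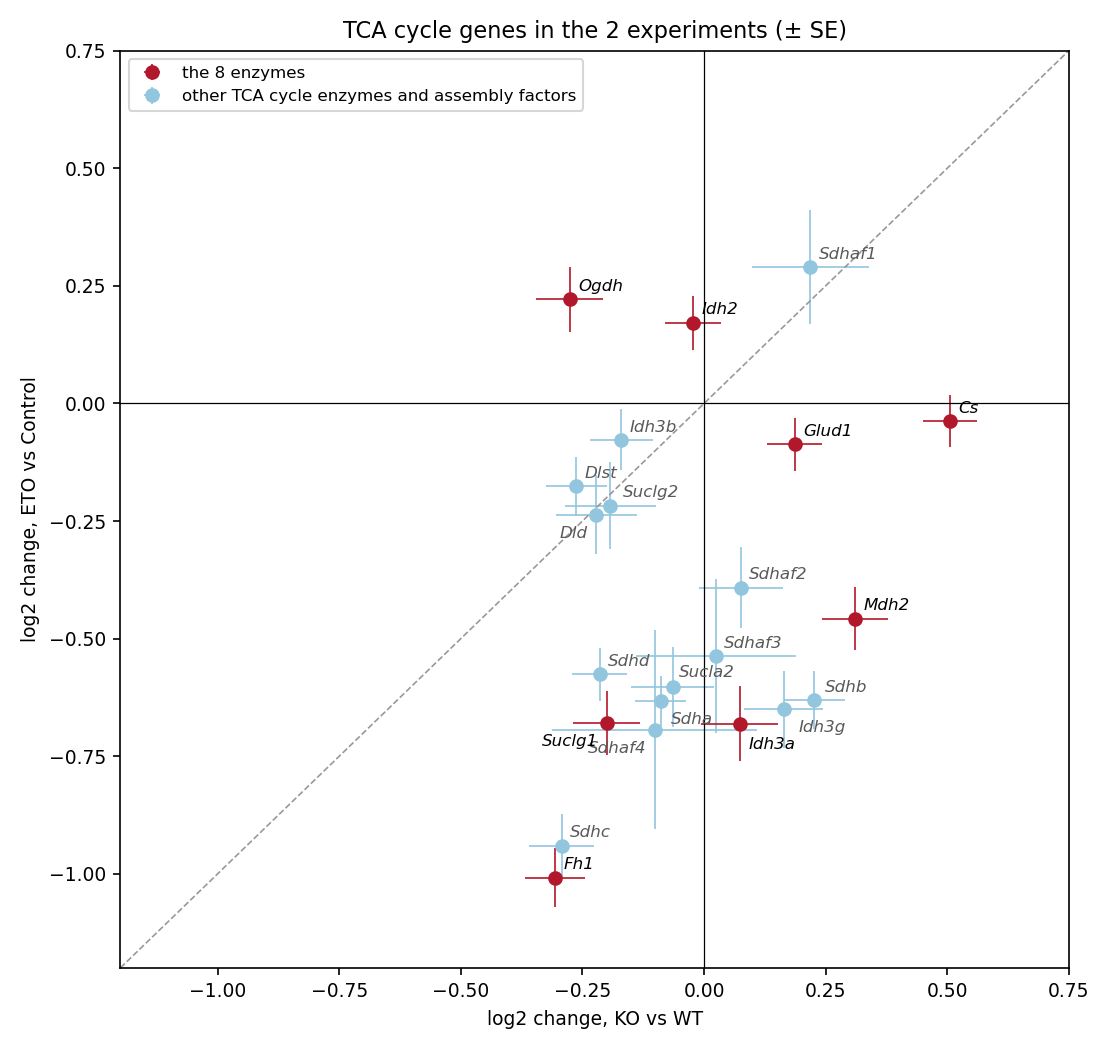
Log2 change in KO against WT (x axis) and in ETO against Control (y axis), both ± SE, for the 8 enzymes (red) and other TCA cycle enzymes and assembly factors (blue); the dashed line marks equal changes. Mdh2 (0.31 and -0.46) and Ogdh (-0.28 and 0.22) lie on opposite sides of 0 in the 2 comparisons, and Fh1 lies beside Sdhc.

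The 15 other enzymes, subunits and assembly factors of the cycle were set beside the 8. The counts on this list and the lists below stand beside these shares over all genes. In KO 24.6% rose and 13.3% fell, with etomoxir 26.8% rose and 34.0% fell, and after release 33.1% rose and 24.6% fell. With etomoxir, 12 of the 15 fell and 1 rose (median log2 change -0.54). Sdhc, which anchors succinate dehydrogenase in the inner membrane, fell by 0.94 on the log2 scale, the flavoprotein subunit Sdha fell by 0.63, and the iron-sulfur subunit Sdhb fell by 0.63. Sdhd, the other anchor subunit, fell by 0.58 (adjusted p = 3.81e-07). The falls numbered 7 to 10 under the other scalings and 8 in the FPKM values. After release 11 of the 15 rose relative to ETO and 1 fell, with Sdhc at 0.78 and Sdhd at 0.50. In KO cells 4 of the 15 fell and 1 rose (median -0.10), among them 3 named here: Sdhc fell by 0.29, Dlst, the succinyltransferase that works with Ogdh, fell by 0.26, and Sdhd fell by 0.21. Sdhb rose (0.23, adjusted p = 0.0098), and is named after its value was seen. Under the other scalings 8 or 9 of the 15 fell in KO and none rose. The test of the difference was positive for 7 and negative for none (8 and 0 at an unadjusted p under 0.05), among them Sdhb (0.86) and Sdha (0.54). Of all genes, 32.3% were positive and 22.2% negative. Under TMM the test was positive for 6 of the 15 and negative for 2, and with scaling to total signal positive for 4 and negative for 5.

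Partner subunits, chosen after their values were seen, did not all move with the 8. The NAD-dependent isocitrate dehydrogenase is built from Idh3a, Idh3b and Idh3g. Idh3a had 58.4 and 58.0 FPKM in ETO, against 93.8 and 90.5 in Control, and Idh3g had 117 and 123, against 197 and 170.3. Idh3b had 142 FPKM in both ETO libraries, against 151 and 160 in Control. In normalised counts Idh3g fell (log2 change -0.65, adjusted p = 5.01e-06) and Idh3b was not called (-0.08, adjusted p = 0.317). Suclg1 forms an ADP-dependent enzyme with Sucla2 and a GDP-dependent one with Suclg2. Sucla2 fell with etomoxir (-0.60, adjusted p = 1.75e-05), and Suclg2 was not called (-0.22, adjusted p = 0.0541). Ogdhl, a relative of Ogdh, fell with etomoxir (-0.28, adjusted p = 0.000695) where Ogdh rose. Per length Ogdhl stood at 111 and 105 FPKM in KO, 120 and 106 in WT, 55.3 and 55.9 in Released, 43.8 and 43.4 in ETO and 52.3 and 52.5 in Control. It was thus higher than Ogdh in every KO, WT, Released and Control library and lower in both ETO libraries.

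The NADP-dependent isocitrate dehydrogenases differed in order between the cell lines. The mitochondrial Idh2 had 299.5 and 252 FPKM in KO and 304 and 282 in WT, against 119 and 112 (KO) and 100.1 and 98.9 (WT) of the cytosolic Idh1. In E14tg2a cells Idh1 was the higher one, with 222 and 233 FPKM in Released and 230.4 and 216.5 in Control, where Idh2 had 121 and 117 in Released and 126 and 109 in Control. In ETO cells the levels were close, 140.2 and 141.5 FPKM for Idh2 and 147 and 144 for Idh1. The lines were handled in separate experiments, and this contrast was not tested. Within the etomoxir comparison Idh1 fell (log2 change -0.61, SE 0.0593, adjusted p = 3.09e-07) where Idh2 rose. Mdh1, the cytosolic malate dehydrogenase, fell as Mdh2 did (-0.76, adjusted p = 2.73e-08), and in KO it fell (-0.26, adjusted p = 0.00305) where Mdh2 rose. Of the 7 cytosolic counterparts, 5 fell and 1 rose with etomoxir (3 and 1 under the other scalings, 2 and 1 in the FPKM values). In KO 2 fell and 1, Got1 (0.22, a call lost under the other scalings), rose.

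Other genes of glutamine and glutamate metabolism, which make, carry or use these amino acids, moved both ways. In KO cells 7 of 16 tested rose and 3 fell (median log2 change 0.13, turning to -0.04 with total signal). Slc38a2, a glutamine transporter, had 4340 and 4397 normalised counts in KO, against 2118 and 2108 in WT (log2 change 1.05, adjusted p = 1.85e-08). Gpt2, the mitochondrial alanine transaminase that makes alpha-ketoglutarate from glutamate, had 5029 and 5036 in KO, against 2669 and 2777 in WT (0.89, adjusted p = 3.09e-07). Both genes were far above WT in both KO libraries. Got2, the mitochondrial aspartate transaminase, fell (-0.56, adjusted p = 2.61e-05). With etomoxir 6 of the 16 rose and 9 fell (6 and 6 with total signal). Slc38a1, another glutamine transporter, had 4944 and 5326 in ETO, against 2118 and 2080 in Control (1.29, adjusted p = 9.31e-11), and in KO it rose by 0.54. Oat, ornithine aminotransferase, fell by 1.17 and Ppat, the amidotransferase of purine synthesis, fell by 1.08. The row of Glul, glutamine synthetase, which is merged with that of Mir8114, fell by 1.27.

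Genes of pyruvate entry, which supplies the acetyl-CoA and oxaloacetate that Cs joins, included the largest changes on the 6 pathway lists in KO and in ETO. Pdk1, a kinase that inhibits pyruvate dehydrogenase, had 193 and 223 normalised counts in ETO, against 1085 and 1070 in Control (log2 change -2.37, adjusted p = 1.64e-11). Pdk4, another of these kinases, had 383.5 and 417 in ETO, against 103.5 and 107 in Control (1.92, adjusted p = 3.82e-10). In KO, Pdk4 fell by 0.75, though not by FPKM (adjusted p = 0.169), and Pcx, pyruvate carboxylase, which makes oxaloacetate, fell by 1.07. Pdk2, a further kinase of this family at a low level, is named after its values were seen: it had 13.4 and 40.6 in KO, against 145 and 111 in WT (-2.38, SE 0.381, adjusted p = 0.000395). Both KO libraries of Pdk2 were below both WT libraries but lay far apart from each other. Pcx rose with etomoxir (0.44, adjusted p = 0.0057). In all, 8 of 14 genes fell and 3 rose with etomoxir (5 and 3 with total signal, 5 and 1 in the FPKM values). In KO 5 fell and 1, Pdhb (0.44), rose. Of 12 other genes of anaplerosis and cataplerosis, 7 fell and 1 rose with etomoxir and 4 fell and 1 rose in KO (8 and 1 with total signal). Aldh5a1, succinate semialdehyde dehydrogenase, fell in KO (-1.08) and rose in ETO (1.29), and Pck2, mitochondrial phosphoenolpyruvate carboxykinase, rose in KO (0.81). Of 7 mitochondrial carriers, 5 fell and 2 rose with etomoxir (2 and 2 with total signal), and 1 rose in KO, Slc25a10 (0.53), a call lost under scaling to total signal.

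**Figure D4:**
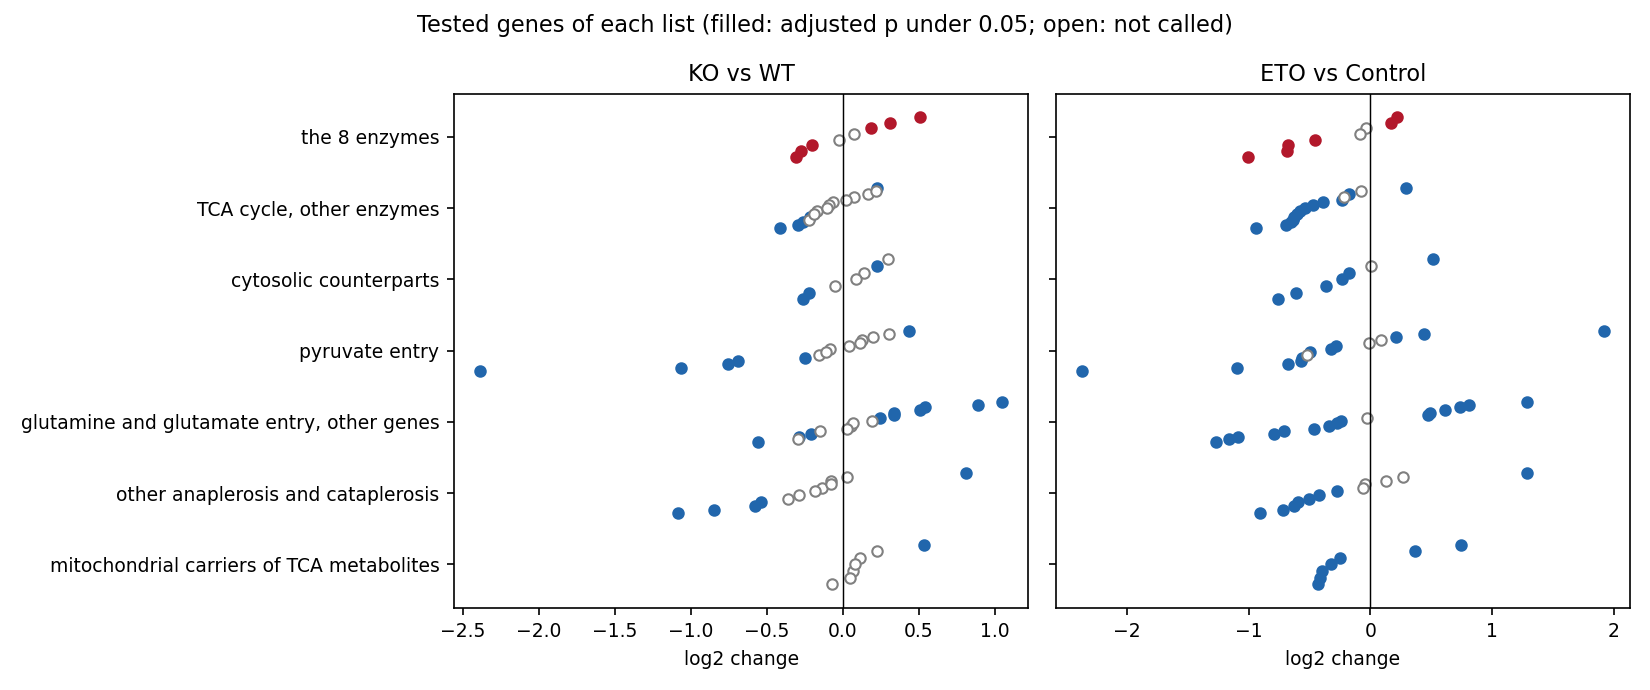
Log2 change (x axis) of each tested gene of the 8 enzymes (red) and of the 6 pathway lists (blue) in KO against WT (left) and ETO against Control (right); filled points passed an adjusted p of 0.05 and open points did not. Pdk2 stands at -2.38 in KO; Pdk1 stands at -2.37 and Pdk4 at 1.92 in ETO, where they lie beyond the range of the 8 enzymes, which is -1.01 to 0.22.

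Among 14 regulators known to act on metabolic genes of this kind, 5 rose and 2 fell in KO (3 and 2 under TMM, 3 and 3 with total signal), and 4 rose and 8 fell with etomoxir. The shares over all genes were 24.6% rising and 13.3% falling in KO, and 26.8% rising and 34.0% falling with etomoxir. Ppargc1a, a coactivator of mitochondrial genes, named after its values were seen, had 34.6 and 29.1 normalised counts in ETO, against 1.10 and 0 in Control, where both values lie below 3 reads. It was called as a rise (limma adjusted p = 2.59e-05), but it passed the filter on low values only through its ETO libraries. Its p-value is thus not separate support for the rise. Ppargc1a had 6.20 and 8.20 in Released, and it was at 0 in all KO and WT libraries. Atf4, a transcription factor of the amino acid response, had 8322 and 8355 normalised counts in KO, against 4874 and 5049 in WT (log2 change 0.75), and 8608 and 8331 in ETO, against a highest value of 5052 in Control (0.76). Gabpa, the DNA-binding subunit of an ETS-family activator of mitochondrial genes, rose in KO (0.42, though not by FPKM, adjusted p = 0.33) and fell in ETO (-0.72). Esrrb, an orphan nuclear receptor of the ground state, fell in KO (-0.41) and in ETO (-0.57). The row that merges Pprc1, a coactivator of the PGC-1 family, with Nolc1 rose in KO (0.31) and fell in ETO (-0.74). A link between these levels and those of the 8 enzymes was not tested.

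Likeness of profile was measured as the root mean square distance between centred log2 values over the 10 libraries. Predicted genes and rows that merge several genes were passed over. For Fh1 the nearest of the remaining tested genes was Sdhc, at 0.0515, the enzyme subunit of the preceding step, followed by H2afv and Ism2. Among the 8 themselves, Fh1 lay nearest to Idh3a (0.193) and Suclg1 nearest to Mdh2 (0.195), while Idh2, whose nearest was Ogdh, stood farthest from the rest (0.366). Mdh2 lay nearest to U2af2 (0.0427) and Sf1 (0.0437), which encode splicing factors. Cs lay nearest to Shc1 (0.0544), Idh2 to Pttg1ip (0.0662), Idh3a to Abi2 (0.0538), Ogdh to Esyt1 (0.0714), Suclg1 to Nelfe (0.0461) and Glud1 to Slc44a1 (0.0508). These distances describe 10 libraries of 5 groups and 2 cell lines, and the replicates of a group share their treatment.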

How the data were processed

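The 10 libraries were Illumina TruSeq single-end libraries of RNA from mouse embryonic stem cells, per the labels' protocols. The submitters' processing notes name TopHat2 2.1.1, SAMtools 1.5, deepTools and the build mm10. The program behind the gene tables, and its use of strand, are not given in the sources used here. The deposited signal is called a count per the file headers, but was divided by a factor for each library. Taking 1 read as the commonest smallest step, 84.4% to 85.6% of values were whole reads within 0.1, and 88.9% to 90.3% of those under 20 reads, so the planned count model was not fitted. FPKM values, deposited by the authors, were used to compare levels between genes and as an alternative.

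Rows of 1 name were summed (50273 rows, 49624 names, 1314 rows that merge several genes). Tests used log2(value + 1), which understates changes of low genes, for genes that reached 10 in 2 or more libraries. The tool was limma 3.58.1 in R 4.3.3, with 1 mean per group over all 10 libraries, an intensity trend, robust moderation and two-sided tests, adjusted by Benjamini-Hochberg over all 16056 genes, with calls under 0.05. TMM factors were computed by the published formula. Tables and figures were made with Python 3.11.15, numpy 2.4.6, pandas 2.3.3 and matplotlib 3.10.9. A pair of mitochondrial rows at 0 in Released replicate 1 and above 10000 elsewhere was left out of tests. Replicates differed by a median of 0.183 (log2, absolute) in WT and 0.105 to 0.147 in the other groups. The model was also run on simulated reads with few changed genes and the same spread parameter for all genes, a simpler setting than these data. That run does not measure how well the calls here hold.

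The 8 enzymes, the gene lists and the tests were chosen with earlier results of these data known. The rule for named genes took all 8 enzymes, Kat8, Cpt1a, up to 4 genes with the smallest adjusted p of each pathway list in each comparison, and the 3 genes most alike to each enzyme; examples among them were picked after their values were seen. Alternatives were pseudocounts, filters, 4 scalings, FPKM, a fit per experiment, moderation without the robust option, a replicate block, merged rows left out, and each library left out in turn. Some genes of the lists are counted but not reported here by name.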

Additional observations from a re-analysis of the deposited data

How the results depend on the processing

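Of the 8 enzymes, Cs and Fh1 in KO, and Fh1, Suclg1, Idh3a and Mdh2 in ETO and after release, with Glud1 after release, kept their direction and call under every alternative run. The FPKM values were fitted with a pseudocount of 0.1 and a filter of 0.5, over 17488 genes. Fewer genes were called with them: 2747 in KO, 261 in Released against Control and 5748 for the difference of changes. There 1 enzyme rose and 1 fell in KO, 0 rose in ETO (limma, 2 as reported), 1 fell after release and 0 rose in Released against Control. With total signal, with or without mitochondrial rows, 1 enzyme rose in KO, and with total signal 3 of the differences were positive. With a filter of 50, TMM, median-of-ratios, either total-signal scaling or no robust option, 2 differences were negative. The fit per experiment called 3713 genes in Released against Control, with 2 enzymes rising and 1 falling, and gives no value for the difference of changes. The cause of these shifts was not tested.

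Leaving out 1 library leaves a group of 1, assumed to vary like the others. Enzymes that rose then numbered 0 to 2 in ETO, 0 to 2 in Released against Control, 2 to 3 in KO and 5 to 6 for the difference. Those that fell numbered 1 to 2 after release, 2 to 3 in KO and 1 to 2 for the difference. Genes called ranged over 4635 to 5919 in KO, 8278 to 10148 in ETO, 7537 to 9680 after release, 773 to 2870 in Released against Control and 7636 to 8650 for the difference.

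Values near 0 changed sign. In KO, Idh2 ranged from -0.0692 to 0.0229 with 1 library left out, and was positive without WT replicate 1 (0.0033) or KO replicate 2. Idh3a stood at -0.0017 under TMM, -0.0045 under median-of-ratios, -0.0920 and -0.0879 with the 2 total signals, and ranged from -0.05 (without KO replicate 2) to 0.197 with 1 library left out. In ETO, Cs stood at 0.0536, 0.0679, 0.152 and 0.112 under the 4 scalings, and Glud1 at 0.0046, 0.0190, 0.103 and 0.0631. After release, Cs ranged from -0.0252 to 0.0098 (without ETO replicate 2). In Released against Control with total signal, Cs stood at 0.00073 and Idh2 at 0.0028. In FPKM, Idh2 stood at 0.0236, Ogdh at -0.0241 and Suclg1 at 0.0299. Ogdh stood at -0.0023 under TMM and ranged from -0.0269 to 0.0306 with 1 library left out, negative without Control or Released replicate 1. The difference of Glud1 was -0.0816 and -0.0378 with the 2 total signals. Of other genes, Idh1 stood at -0.0241 and -0.0200, Slc25a1 at -0.0529 and -0.0488 and Slc25a13 at -0.0880 and -0.0839 in KO with the 2 total signals, Slc25a13 at -0.00053 under median-of-ratios, Acly after release at -0.0171 with total signal and -0.0686 in FPKM, Pdk4 in Released against Control at 0.15 in FPKM, and Kat8 there at 0.0004014 with total signal and from -0.156 to 0.0657 (without Released replicate 1) with 1 library left out.

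Over all genes, replicate numbers showed little pairing of the samples (correlations of deviations -0.04 to 0.08 over 10 pairs of groups). A batch that acts on part of the genes was not tested by this. With a replicate block, 6240 genes were called in KO, 9852 in ETO, 9353 after release, 2168 in Released against Control and 8888 for the difference, against 6086, 9763, 9262, 2012 and 8754 without it.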
